A study of Homo sapiens with 16 samples.

Results

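A set of 10 genes, Wnt feedback targets together with transcription factors of the pathway, was followed across 4 groups of cultured colorectal cancer cells. They were AXIN2, NKD1, RNF43, ZNRF3, NOTUM, LEF1, TCF7, TCF7L2, SP5 and APCDD1. All 10 were found by gene symbol among 54127 gene identifiers in the count files, each with 1 identifier. Each of the lines HT55 and SW948 was given either itraconazole or its solvent DMSO, and every one of these 4 groups had 4 libraries. HT55 and SW948 are established human colorectal cancer lines that were grown attached to plastic with serum. Itraconazole is an azole antifungal, was given at 5 µM in DMSO, and RNA was taken on day 6. No genotype was changed in any group. Each line is a single cell population kept in culture, so the 4 libraries of a group are replicate cultures of 1 line and not different tumours.

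In the canonical Wnt pathway, β-catenin is held down by a destruction complex built on APC and AXIN proteins. When it escapes that complex it enters the nucleus, binds TCF and LEF factors and switches on target genes. Several of those targets restrain the pathway in turn: AXIN2 is a scaffold of the destruction complex, NKD1 binds Dishevelled inside the cell, RNF43 and ZNRF3 are membrane ubiquitin ligases that remove Frizzled receptors, NOTUM is a secreted enzyme that strips the lipid from Wnt ligands, and APCDD1 is a membrane inhibitor. TCF7, LEF1 and TCF7L2 encode the nuclear factors themselves, and SP5 encodes a zinc-finger repressor. Most colorectal cancers carry a mutation that keeps this pathway active, which makes such target genes common readouts of it.

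SP5 is shown with its promoter because it was the member that fell in both lines when all libraries were used. The 250 bases before the RefSeq start of SP5 (GRCh38.p14, chr2:170715087-170715336, + strand, 5′ to 3′) are printed with each match to CTTTGA, the core letters bound by TCF and LEF factors, in capitals. TCAAAG is the same core read on the opposite strand. TCF7 is printed beside it (GRCh38.p14, chr5:134115363-134115612, + strand, the first of its 2 windows) as a member that fell in SW948 and has no match.
SP5: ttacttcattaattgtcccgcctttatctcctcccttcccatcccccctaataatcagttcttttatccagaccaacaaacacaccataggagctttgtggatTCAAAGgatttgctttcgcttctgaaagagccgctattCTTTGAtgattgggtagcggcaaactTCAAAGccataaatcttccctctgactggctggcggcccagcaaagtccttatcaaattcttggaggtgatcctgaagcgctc
TCF7: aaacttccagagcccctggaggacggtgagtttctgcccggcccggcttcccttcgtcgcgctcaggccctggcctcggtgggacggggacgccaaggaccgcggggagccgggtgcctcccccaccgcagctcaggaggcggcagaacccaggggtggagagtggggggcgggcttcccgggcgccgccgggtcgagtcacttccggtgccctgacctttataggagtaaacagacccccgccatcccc
The SP5 window held 3 cores, which begin 147, 109 and 83 bases before the start, and the middle one also matched the longer form CTTTGAT. Windows of 250 bases before to 50 after a start were matched for 6 of the 10 members, with 10 windows in all. No core was present in the other 9 windows, which belong to RNF43, LEF1, TCF7, TCF7L2 and APCDD1. Of 35116 RefSeq windows of the same length, 12.9% held at least 1 core on either strand, 2.62% held CTTTGAT, which contains the core, and 35 windows (0.0997%) held 3 or more. The GC box GGGCGG was present in 44.95% of windows, and 9.06% held 4 or more. The first TCF7L2 window held 5 GC boxes, a pair of them overlapping. The LEF1 and APCDD1 windows held 2 each, and those of SP5 and TCF7 (the first) held 1 each. A match is a run of letters and not a measured binding site.

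Each library held 8269406 to 11110814 gene counts. The summed level of 10 epithelial markers was 6680 to 12000 CPM (counts per 1000000 counts in genes kept by the filter, on 1 normalised scale), and that of 5 endothelial markers was 0 to 0.831 CPM. The sum of 8 fibroblast markers was 1.52 to 12.1 CPM. Among 8 leukocyte markers the sum reached 367 CPM through LYZ and CD68, while PTPRC never exceeded 1 count. A pair of libraries stood apart by measures not limited to the members. In treated HT55 replicate 3, the shift from DMSO over 12133 genes was 61.77% of that of the other treated HT55 libraries, against 91.48% to 112.6% for each of the other 3. In SW948 DMSO replicate 3, 24 genes used by HT55 and almost silent in SW948 gave 39 counts (exact 95% Poisson interval 27.7 to 53.3, counting error only), against 7 to 9 in the other SW948 DMSO libraries and 8 to 14 in the treated ones. These 24 genes were chosen for a median of at most 1 count over the SW948 libraries, which limits the rate they can show. Results that rest on either library are given with and without it. Treated HT55 replicate 3 was singled out for its weaker shift, so leaving it out favours larger changes and more calls by that choice. Among the members, HT55 DMSO replicate 3 was the highest DMSO library of its line for all but LEF1. It was kept in the HT55 fits without treated replicate 3.

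Without itraconazole, the 2 lines differed in every member. In HT55 the secreted inhibitor NOTUM was the most abundant member and LEF1 the least, whereas in SW948 the ligase RNF43 led and NOTUM, NKD1 and APCDD1 had means under 1 RPKM. Of the members, 9 were lower in SW948 and 1, LEF1, was higher, each with an adjusted p under 0.05 (edgeR quasi-likelihood test, Benjamini-Hochberg). This stood against 84.2% of 12820 genes called in either direction in the same comparison, 41.6% lower and 42.6% higher. The median difference of the 10 members was -2.24 on the log2 scale, against 0.01 over all genes tested. For none of the 10 did the CPM ranges of the lines overlap, which held for 78.8% of all genes (39.1% lower, 39.7% higher).

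**Figure D1:**
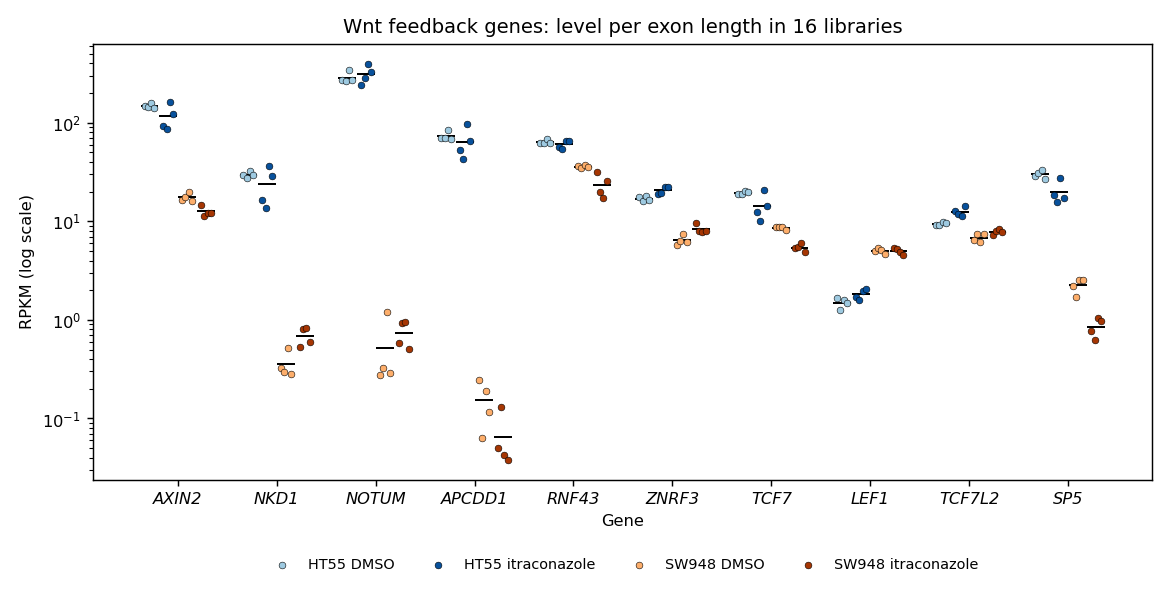
Level of each Wnt feedback gene in RPKM (CPM per kilobase of exon, log axis) in 16 libraries; each point is 1 library, colours give the 4 groups and short bars the mean of 4. NOTUM, NKD1 and APCDD1 sit far lower in SW948 than in HT55, LEF1 is higher in SW948, and RNF43 and TCF7L2 differ least between the lines.

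Levels of different genes were compared per length, in RPKM, which is CPM per kilobase of annotated exon. In HT55 with DMSO, NOTUM had a mean of 287 ± 34.8 RPKM (SD, n = 4), AXIN2 147 ± 8.25, APCDD1 73.6 ± 7.85 and RNF43 63.5 ± 3.22. Below these came SP5 at 30.1 ± 2.84 and NKD1 at 29.8 ± 1.79, which did not differ beyond their spread. TCF7 followed with 19.5 ± 0.756, ZNRF3 with 17.0 ± 0.942, TCF7L2 with 9.44 ± 0.259 and LEF1 with 1.498 ± 0.182 RPKM. Apart from SP5 and NKD1, the ranges of neighbours in this order did not overlap. With the longest transcript as length, TCF7 (36.8 ± 1.43 RPKM) stood above SP5 (30.5 ± 2.88) and NKD1 (30.3 ± 1.83), so its place depends on the length used. In SW948 with DMSO the order was RNF43 at 35.9 ± 1.04, AXIN2 at 17.5 ± 1.84, TCF7 at 8.62 ± 0.255, TCF7L2 at 6.85 ± 0.632, ZNRF3 at 6.40 ± 0.694, LEF1 at 5.05 ± 0.313, SP5 at 2.24 ± 0.403, NOTUM at 0.521 ± 0.448, NKD1 at 0.355 ± 0.112 and APCDD1 at 0.154 ± 0.0792 RPKM. Here TCF7L2 overlapped ZNRF3, and NOTUM overlapped NKD1. With itraconazole the order at the top was kept in both lines, NOTUM before AXIN2 in HT55 and RNF43 before AXIN2 in SW948. In treated SW948 the means of ZNRF3 (8.36 ± 0.842) and TCF7L2 (7.87 ± 0.460) passed that of TCF7 (5.42 ± 0.446 RPKM). With the longest transcript TCF7L2 (13.0 ± 0.760) was still above TCF7 (10.2 ± 0.843), but ZNRF3 (8.50 ± 0.856 RPKM) was below it.

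AXIN2 (GRCh37 chr17:63524681-63557766, minus strand, ENSG00000168646) is the member most often used as a general readout of β-catenin activity. Its DMSO levels were 767, 744, 825 and 726 CPM in HT55 and 85.6, 91.0, 104 and 82.6 CPM in SW948. The SW948 libraries were therefore all below the HT55 ones, 8.42-fold lower by the fit (log2 fold change -3.07 ± 0.06 SE, edgeR adjusted p = 1.13e-23). With itraconazole SW948 gave 76.8, 58.8, 63.0 and 63.8 CPM, each below every DMSO library. The fall was 1.41-fold (log2 fold change -0.50 ± 0.09, edgeR adjusted p = 0.000177). Treated HT55 gave 484, 445, 852 and 637 CPM. Replicates 1, 2 and 4 lay below all DMSO libraries and replicate 3 above them, and the log2 fold change of -0.34 ± 0.17 did not pass (edgeR adjusted p = 0.116). Without treated replicate 3 it was -0.54 (adjusted p = 0.00037), and with no low-count filter -0.35 (adjusted p = 0.0356). With all 8 HT55 libraries it did not pass by DESeq2, on plain library totals or in 1 fit on all 16 libraries.

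NKD1 (chr16:50582307-50683160, plus strand, ENSG00000140807) rose in SW948 and did not pass the test in HT55. In HT55 it was at 514, 483, 559 and 511 CPM with DMSO and at 288, 240, 640 and 506 CPM with itraconazole. Replicates 1 and 2 of the treated group fell clearly below the controls, replicate 4 stayed among them and replicate 3 exceeded them. The log2 fold change was -0.31 ± 0.26 (edgeR adjusted p = 0.332) and, without treated replicate 3, -0.58 (adjusted p = 0.0131). In SW948 the level was 83.9-fold lower than in HT55 at baseline, at 70, 54, 104 and 63 counts, or 5.62, 5.11, 9.03 and 4.86 CPM. Treated SW948 libraries gave 93, 108, 114 and 92 counts, or 9.32, 13.9, 14.5 and 10.4 CPM, all above the DMSO libraries. This was a rise of 1.90-fold, or 0.93 ± 0.20 on the log2 scale (edgeR adjusted p = 0.000835), and 1.16 without DMSO replicate 3. The highest DMSO value belonged to replicate 3, the library with the HT55 signal. If every SW948 library carried HT55 RNA at the rate of those 24 genes, 21.4 counts of NKD1 in that library and 3.84 to 7.69 in each of the others would come from HT55.

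**Figure D2:**
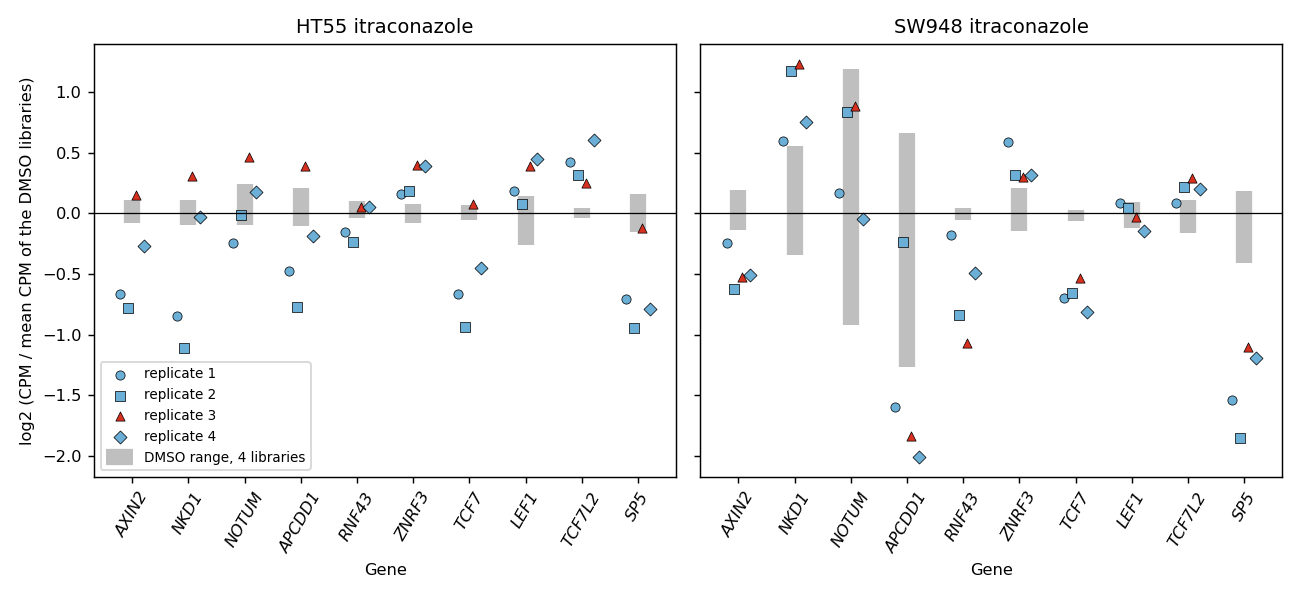
Each treated library as log2 of its CPM over the mean of the 4 DMSO libraries of its line, for the 10 Wnt feedback genes; grey bars span the DMSO libraries and the red triangle is replicate 3. In HT55 replicate 3 lies above the DMSO range for all genes but RNF43 and SP5. Replicates 1 and 2 lie below it for AXIN2, NKD1, RNF43, TCF7, SP5 and APCDD1. In SW948 all 4 treated libraries lie below it for AXIN2, RNF43, TCF7 and SP5 and above it for NKD1 and ZNRF3.

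The paired ligases RNF43 (chr17:56431037-56494956, minus strand, ENSG00000108375) and ZNRF3 (chr22:29279560-29453476, plus strand, ENSG00000183579) did not move together. RNF43 in SW948 was at 229, 219, 235 and 225 CPM with DMSO and at 201, 127, 108 and 161 CPM with itraconazole. Every treated library was below every control, and the treated ones were spread more widely. The levels at baseline were 1.77-fold apart. The fall with itraconazole was 1.55-fold (log2 fold change -0.63 ± 0.14, edgeR adjusted p = 0.000774). In HT55 RNF43 stood at 393, 392, 433 and 392 CPM against 363, 341, 418 and 416 CPM, and the groups overlapped (log2 fold change -0.07 ± 0.08, adjusted p = 0.489). ZNRF3 rose in both lines on the scale that corrects for composition. HT55 gave 124, 113, 126 and 114 CPM with DMSO and 133, 135, 157 and 157 CPM with itraconazole, a 1.22-fold rise without overlap (log2 fold change 0.29 ± 0.08, edgeR adjusted p = 0.0093). SW948 gave 40.4, 43.7, 51.7 and 43.2 CPM against 67.2, 55.6, 55.0 and 55.8 CPM, a 1.28-fold rise (log2 fold change 0.36 ± 0.09, adjusted p = 0.00237). On plain library totals neither rise passed, at 0.12 in HT55 (adjusted p = 0.259) and 0.03 in SW948 (adjusted p = 0.818). That scaling moved the median log2 fold change of all genes tested by -0.17 in HT55 and by -0.33 in SW948.

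NOTUM (chr17:79910383-79919716, minus strand, ENSG00000185269) and APCDD1 (chr18:10454632-10489946, plus strand, ENSG00000154856) were high in HT55 and low in SW948. NOTUM in HT55 was at 794, 782, 989 and 784 CPM with DMSO and at 707, 831, 1156 and 949 CPM with itraconazole. The groups overlapped, and the log2 fold change was 0.12 ± 0.14 (edgeR adjusted p = 0.499), or -0.01 without treated replicate 3. At baseline NOTUM differed by -9.11 ± 0.15 on the log2 scale, SW948 minus HT55, and by -9.90 without SW948 DMSO replicate 3. SW948 held 10, 10, 40 and 11 NOTUM counts with DMSO and 17, 21, 22 and 13 with itraconazole. The 40 counts belonged to replicate 3, where the HT55 signal alone would give 34.7 counts, and it would give 6.23 to 12.5 counts in each of the other libraries. With that replicate the log2 fold change was 0.47 ± 0.44 (edgeR adjusted p = 0.336), and without it 1.25 (adjusted p = 0.00273).

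APCDD1 in HT55 was at 420, 413, 506 and 408 CPM with DMSO and at 314, 256, 574 and 384 CPM with itraconazole. Replicates 1, 2 and 4 of the treated group were below all controls and replicate 3 above them. The log2 fold change of -0.19 ± 0.21 did not pass (edgeR adjusted p = 0.443), and without treated replicate 3 it was -0.45 (adjusted p = 0.00378). The baseline difference was -8.86 ± 0.13 (edgeR adjusted p = 4.66e-26). In SW948 APCDD1 gave 18, 4, 13 and 9 counts with DMSO and 3, 6, 2 and 2 with itraconazole, which was too few for the fit. The HT55 signal alone would give 3.25, 4.18, 18.1 and 3.25 counts in the DMSO libraries and 5.10, 6.50, 3.71 and 4.18 in the treated ones. Only DMSO replicates 1 and 4 held more APCDD1 counts than that. In those replicates NOTUM, at a mean of 837 CPM in HT55 DMSO against 437 for APCDD1, gave 10 and 11 counts. The genes behind this signal were chosen as almost silent in SW948, which limits the rate they can show. Whether the APCDD1 counts above it came from SW948 was not tested. The groups overlapped, and a two-sided exact permutation test of CPM gave p = 0.114, where the smallest p this design allows is 0.0286.

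Of the nuclear factors, TCF7 (chr5:133450372-133487556, plus strand, ENSG00000081059) fell in SW948 and TCF7L2 (chr10:114710006-114927437, plus strand, ENSG00000148737) rose in HT55. TCF7 in SW948 was at 88.8, 87.6, 88.5 and 83.2 CPM with DMSO and at 53.8, 55.2, 60.3 and 49.4 CPM with itraconazole, with a wide gap between the groups. The fall was 1.63-fold (log2 fold change -0.70 ± 0.07, edgeR adjusted p = 5.2e-07). In HT55 the values were 191, 190, 206 and 200 CPM against 124, 102, 208 and 144 CPM. Again replicates 1, 2 and 4 were below all controls and replicate 3 was just above them. The log2 fold change of -0.44 ± 0.17 did not pass (edgeR adjusted p = 0.0505), and without treated replicate 3 it was -0.66 (adjusted p = 2.85e-05). With all 8 HT55 libraries it passed by DESeq2 (-0.44, adjusted p = 0.0331), on plain library totals (-0.60, adjusted p = 0.0258), with no low-count filter (-0.45, adjusted p = 0.00677) and in 1 fit on all 16 libraries (-0.44, adjusted p = 0.0104). It did not pass with DESeq2 size factors in edgeR, with at least 10 counts in every library or without the top genes. With 1 library left out it passed in 1 of 8 fits.

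TCF7L2, the main TCF of the intestinal epithelium, rose in HT55 from 62.5, 61.9, 65.7 and 64.3 CPM to 85.5, 79.2, 75.6 and 96.7 CPM. All treated libraries exceeded the controls, and the rise was 1.32-fold (log2 fold change 0.40 ± 0.08, edgeR adjusted p = 0.00185). In SW948 TCF7L2 was at 43.99, 49.8, 41.2 and 49.6 CPM against 48.9, 53.7, 56.4 and 53.0 CPM. The groups overlapped and the log2 fold change of 0.17 ± 0.08 did not pass (edgeR adjusted p = 0.0769). It was 0.22 (adjusted p = 0.021) without treated replicate 1, and -0.17 on plain library totals. LEF1 (chr4:108968701-109090112, minus strand, ENSG00000138795) was the only member higher in SW948 at baseline, 3.37-fold. It was at 8.88, 6.69, 8.60 and 7.95 CPM in HT55 DMSO and at 26.7, 28.9, 27.7 and 24.9 CPM in SW948 DMSO. Its log2 fold change with itraconazole was 0.28 ± 0.14 in HT55 (edgeR adjusted p = 0.112) and -0.04 ± 0.09 in SW948 (adjusted p = 0.678), and was -0.37 in SW948 on plain library totals (adjusted p = 0.00285).

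SP5 (chr2:171571847-171574588, plus strand, ENSG00000204335), whose promoter is printed above, had the largest fall of the members tested in each line. HT55 held 59.2, 64.3, 69.6 and 56.2 CPM with DMSO and 38.2, 32.5, 57.5 and 36.2 CPM with itraconazole. Only treated replicate 3 reached the range of the controls, and the fall was 1.52-fold (log2 fold change -0.60 ± 0.16, edgeR adjusted p = 0.00929). Without that replicate the log2 fold change was -0.80 (adjusted p = 4.67e-06). SW948 held 57, 37, 61 and 68 counts with DMSO and 16, 10, 17 and 18 with itraconazole, or 4.58, 3.50, 5.30 and 5.24 CPM against 1.60, 1.29, 2.16 and 2.03 CPM. The groups were well apart, and the fall was 2.69-fold (log2 fold change -1.43 ± 0.21, edgeR adjusted p = 2.83e-05).

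**Figure D3:**
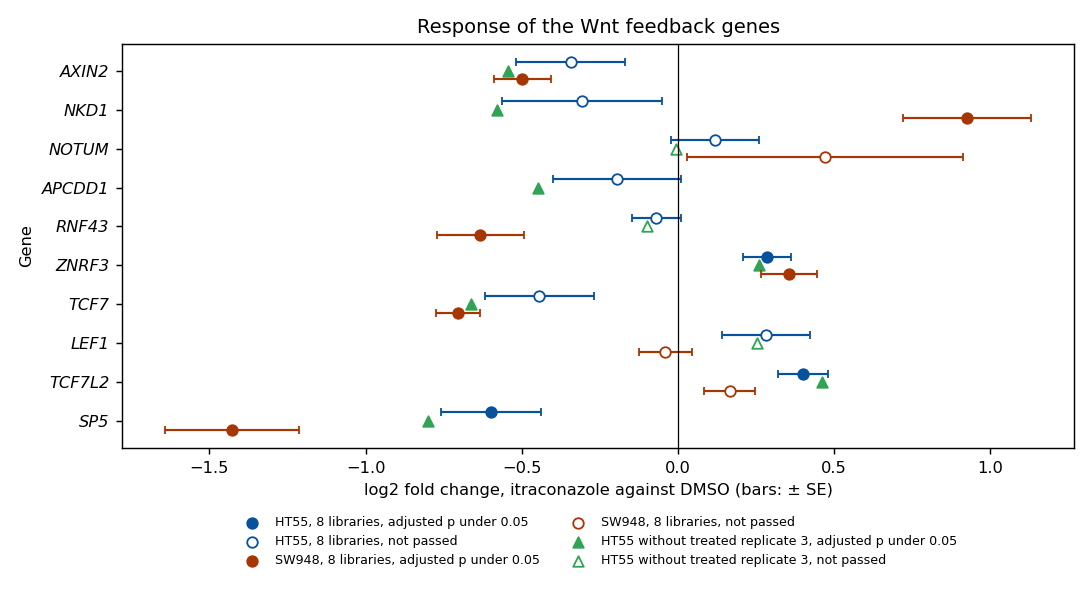
Log2 fold change of each Wnt feedback gene with itraconazole against DMSO; circles with bars are the fit ± SE on 8 libraries per line, triangles the HT55 fit without treated replicate 3, and filled symbols passed an adjusted p of 0.05. In SW948 4 genes fell and 2 rose, and in HT55 1 fell and 2 rose, or 5 fell and 2 rose without that library; APCDD1 has no SW948 value.

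In all, 3 of 10 members changed in HT55, with ZNRF3 and TCF7L2 higher and SP5 lower, beside 54.0% of 12133 genes called (27.5% higher, 26.5% lower). In SW948, 6 of 9 members tested changed, with NKD1 and ZNRF3 higher and AXIN2, RNF43, TCF7 and SP5 lower, beside 80.2% of 12505 genes (38.9% higher, 41.3% lower). Neither share exceeded the share of all genes called. Without treated HT55 replicate 3, 7 of 10 members changed in HT55, with AXIN2, NKD1, TCF7, APCDD1 and SP5 lower, beside 64.5% of 12263 genes (32.6% higher, 31.9% lower). That library was the highest of the 4 treated libraries for 8 of 10 members and below the DMSO range for 0. Groups did not overlap for 2 members in HT55, both higher, against 49.4% of all genes (25.0% higher, 24.4% lower), and for 6 in SW948, 2 higher and 4 lower, against 74.7% (37.3% higher, 37.4% lower). In these bulk libraries fewer cells expressing a gene and less of its RNA per cell cannot be told apart.

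The response differed between the lines for 3 of the 10 members by the interaction of line and treatment, beside 53.9% of 13249 genes (24.8% higher, 29.1% lower in SW948 relative to HT55). The log2 difference, SW948 minus HT55, was 1.26 ± 0.39 for NKD1 (edgeR adjusted p = 0.0103), -0.54 ± 0.18 for RNF43 (adjusted p = 0.0167) and -0.80 ± 0.30 for SP5 (adjusted p = 0.0324). NKD1 and RNF43 passed with any 1 of the 16 libraries left out. Without treated HT55 replicate 3 the differences were 1.53, -0.50 and -0.60. SP5 did not pass without SW948 DMSO replicate 3 (-0.74, adjusted p = 0.0622), DMSO replicate 4 (-0.74, adjusted p = 0.0626), treated replicate 1 (-0.75, adjusted p = 0.0763) or treated replicate 2 (-0.69, adjusted p = 0.0853). NOTUM did not pass (0.38 ± 0.47, adjusted p = 0.518) and did without SW948 DMSO replicate 3 (1.17, adjusted p = 0.0242). For AXIN2 the difference was -0.13 ± 0.21 (adjusted p = 0.633) and for TCF7 -0.23 ± 0.20 (adjusted p = 0.333), so a difference in response was not detected for either.

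Other genes of the pathway are given by list, with the lines side by side. The shares to read each count against are those of all genes tested, 27.5% higher and 26.5% lower in HT55 and 38.9% higher and 41.3% lower in SW948. Of the destruction complex and Dishevelled genes, 9 rose and 1 fell of 14 tested in HT55, with a median of 0.23 against -0.02 over all genes, and 8 rose and 4 fell of 14 in SW948, with a median of 0.35 against -0.02. On plain library totals the counts were 3 higher and 2 lower in HT55 and 6 higher and 5 lower in SW948. DVL1, a Dishevelled protein, rose in both (log2 fold changes 0.86 ± 0.09 and 1.32 ± 0.08, edgeR adjusted p = 3.61e-05 and 5.64e-09), as did FBXW11, a ubiquitin ligase subunit that recognises β-catenin (0.71 ± 0.10 and 1.16 ± 0.07). APC itself fell in SW948 by 1.62 on the log2 scale (adjusted p = 2.97e-09) and stood at 0.00 ± 0.12 in HT55 (adjusted p = 0.975).

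Nuclear cofactors showed 6 higher and 1 lower of 9 tested in HT55 and 6 higher and 2 lower of 11 in SW948, again beside 27.5% higher and 26.5% lower of all genes in HT55 and 38.9% and 41.3% in SW948. On plain library totals SW948 gave 5 higher and 4 lower, and its median turned from 0.23 to -0.10. The TLE genes encode co-repressors that bind TCF factors. TLE4 rose by 0.87 ± 0.16 in HT55 and 1.29 ± 0.14 in SW948 on the log2 scale, and TLE3 by 0.78 ± 0.06 and 1.17 ± 0.07. BCL9L, a β-catenin co-activator, rose by 0.54 ± 0.06 in HT55 (edgeR adjusted p = 4.59e-05) and by 1.79 ± 0.10 in SW948 (adjusted p = 1.35e-09). TLE3 and TLE4 repress where BCL9L activates, and all of them were higher with itraconazole in both lines.

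Among receptors, 4 rose and 6 fell of 13 tested in HT55, and 4 rose and 7 fell of 15 in SW948, where 54.0% and 80.2% of all genes changed. On plain library totals SW948 gave 2 higher and 9 lower, with a median of -0.39 in place of -0.06. LGR5, a stem cell receptor for R-spondin and itself a Wnt target, fell in both lines. HT55 had 26.6 ± 2.22 CPM with DMSO and 7.60 ± 2.69 with itraconazole (SD, n = 4; edgeR adjusted p = 5.79e-05). SW948 had 19.4 ± 0.383 and 2.98 ± 0.765 CPM (adjusted p = 1.23e-09). Its related receptor LGR4 rose in HT55 (log2 fold change 1.45 ± 0.15, edgeR adjusted p = 4.38e-05) and was at -0.06 ± 0.07 in SW948 (adjusted p = 0.411). FZD5, a Frizzled receptor of the gut epithelium, rose in both lines, from 111 ± 3.79 to 213 ± 32.0 CPM in HT55 (adjusted p = 4.99e-05) and, in SW948, from 94.8 ± 3.42 to 178 ± 8.54 CPM (adjusted p = 1.13e-08).

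Of other Wnt targets, among which LGR5 is counted again, 1 rose and 10 fell of 17 tested in HT55, with a median of -0.40, and 5 rose and 11 fell of 16 in SW948, with a median of -0.49. All genes gave 26.5% lower in HT55 and 41.3% lower in SW948. Here TDGF1, a Nodal co-receptor, fell in both lines (log2 fold changes -1.66 ± 0.14 and -2.05 ± 0.12). KLF6 rose in both, by 0.87 ± 0.13 in HT55 (edgeR adjusted p = 0.000361) and by 1.36 ± 0.12 in SW948 (adjusted p = 2.04e-07). Wnt ligands with their secretion factors showed 1 higher and 2 lower of 5 tested in HT55 and 5 higher and 2 lower of 7 in SW948, beside 54.0% and 80.2% of all genes changed. On plain library totals SW948 gave 2 higher and 2 lower. Without treated HT55 replicate 3, the HT55 counts were 9 higher and 1 lower for the destruction complex, 6 and 2 for nuclear cofactors, 4 and 7 for receptors and 2 and 11 for other targets. WNT5B fell in HT55 (log2 fold change -2.02 ± 0.33, edgeR adjusted p = 0.000578). WLS rose in HT55 (0.44 ± 0.12, edgeR adjusted p = 0.01) and in SW948 (0.26 ± 0.06, adjusted p = 0.000766). WNT11 rose in SW948 (0.52 ± 0.13, edgeR adjusted p = 0.0016). Of the extracellular inhibitors, WIF1 fell in HT55 (-1.75 ± 0.18) as 1 of 2 tested. In SW948 3 rose and 1 fell of 4, with KREMEN1 at 1.17 ± 0.08.

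**Figure D4:**
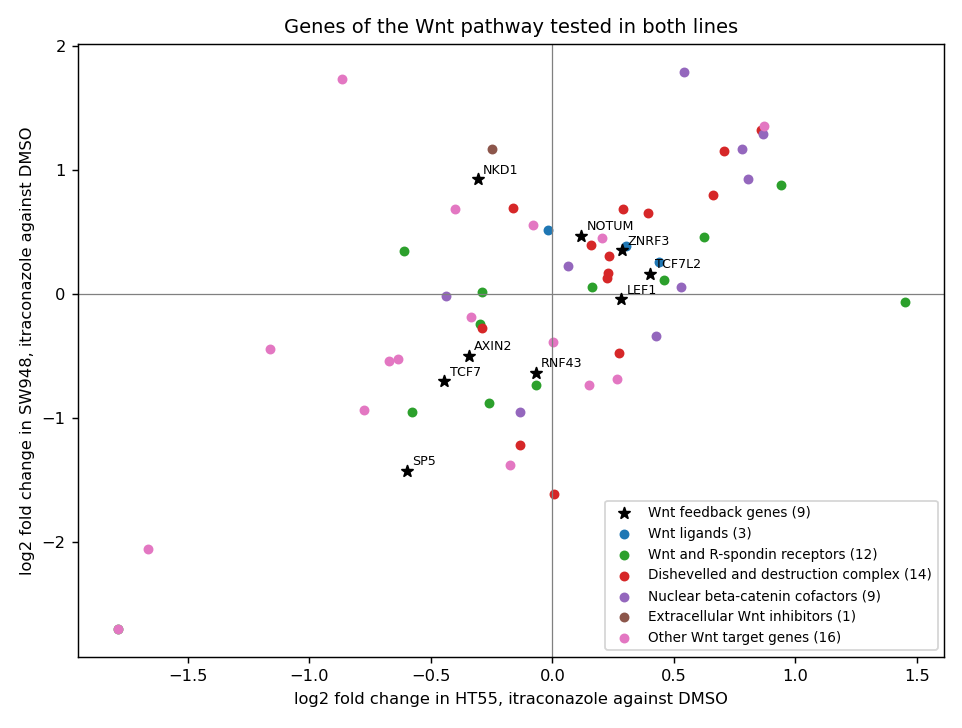
Log2 fold change with itraconazole in HT55 (x axis) against SW948 (y axis) for Wnt pathway genes tested in both lines, coloured by list, with the number of genes in brackets; LGR5 belongs to 2 lists and the lines have separate controls. SP5, TCF7, AXIN2 and RNF43 (only -0.07 in HT55) lie at lower left, as do 8 of the 16 other targets, while NKD1 lies at upper left.

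The genes whose levels followed AXIN2 most closely over the 16 libraries, after each line was centred on its own mean, were SYNPO (r = 0.976), CPNE7 (r = 0.972) and AOPEP (r = 0.956), from 8610 genes examined. Among the members TCF7 came closest (r = 0.916), then SP5 (0.796), RNF43 (0.715) and APCDD1 (0.614), while NKD1 was at 0.12, LEF1 at 0.0568, NOTUM at -0.026, ZNRF3 at -0.3 and TCF7L2 at -0.671. These are descriptions over libraries that share their treatment, their line and treated HT55 replicate 3.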

How the data were processed

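RNA sequencing covered 16 libraries. The authors made TruSeq libraries, sequenced single-end reads, and aligned them to hg19. TopHat, HTSeq and DESeq are named in the submitters' processing notes. The deposited files hold raw read counts per gene, not normalised. The annotation release and the strand setting of counting are not given in the sources used here, so reads of NKD1, ZNRF3, NOTUM, LEF1, TCF7, TCF7L2 and SP5 may include those of overlapping genes. Reads with more than 1 alignment (21.987% to 27.901% of records) were not counted in any gene. Totals outside genes were left out.

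Each line was fitted on its 8 libraries with edgeR 4.0.16 in R 4.3.3 (TMM, filterByExpr, quasi-likelihood test, no covariate). The baseline fit used the 8 DMSO libraries and the interaction all 16. Adjusted p-values (Benjamini-Hochberg, threshold 0.05) run over all genes tested. CPM uses 1 TMM scale over 16 libraries. RPKM divides CPM by the kilobases of all annotated exons (GENCODE on GRCh37, symbols for 47098 identifiers). Promoter windows came from RefSeq on GRCh38.p14. Log2 CPM for correlations used a prior count of 2. The fits were tested on simulated counts.

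All 10 members were named. Other pathway genes were named from those called, with the largest changes and a mean log2 CPM of at least 3, up to 3 per list and line. TNKS2, TLE1, TNFRSF19 and SLC12A2 met this rule and were not described. The same holds for the receptors FZD4, FZD3 and LGR6, which met it in SW948. The values of the other line were added for some. The members and lists were chosen with earlier results of these data known. The labels number 4 replicates per group, which the study's methods call biological, and no batch is labelled. Alternatives were plain totals, DESeq2 1.42.0 size factors and test, other filters, no top genes, 1 joint fit, a replicate block and leaving out each library.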

Additional observations from a re-analysis of the deposited data

Results flagged for a closer look

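In 40 groups of 4 libraries, 1 per member and group, the gap of the most distant library was divided by the range of its group. The ratio passed Dixon's critical value at the 95% level in 6 groups, where chance gives about 1 in 20, or 2. HT55 DMSO replicate 3 was the highest library of its group for RNF43 (0.973), NOTUM (0.941) and APCDD1 (0.877). SW948 DMSO replicate 3 stood apart for NOTUM (0.946), with 40 counts against 10 or 11 in the others. Treated SW948 replicate 1 was the highest for ZNRF3 (0.929), and treated SW948 replicate 2 for APCDD1 (0.864), at 6 counts against 2 or 3. The causes were not tested.

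The response to itraconazole differed between the lines by the interaction test for NKD1 (log2 difference 1.26, SW948 minus HT55), RNF43 (-0.536) and SP5 (-0.799), each with an edgeR adjusted p under 0.05.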

How the results depend on the processing

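Over all members and alternatives, 675 values kept their direction and their side of the threshold, 21 passed it anew, 7 no longer passed and 9 changed sign. The count of members changed in HT55 was 3, and it was 5 with no low-count filter and 3 to 7 when 1 library was left out. Plain library totals gave 5 members for the interaction. Signs changed only for values that had not passed. On plain totals NOTUM in HT55 became -0.039, TCF7L2 in SW948 -0.166 and the interaction of ZNRF3 -0.0957. With 1 library left out, NOTUM in HT55 ran from -0.00589 (without treated replicate 3) to 0.225, LEF1 in SW948 from -0.0819 to 0.0129 (without treated replicate 4), and the interaction of AXIN2 from -0.249 to 0.0766 (without treated HT55 replicate 3). After the data had been seen, pairs of libraries were left out: without treated HT55 replicate 3 and SW948 DMSO replicate 3 the interaction was 0.156 for AXIN2 and 0.00388 for TCF7, and without replicate 3 of both HT55 groups it was 0.0493 for AXIN2. The RPKM order with the longest transcript as length left 5 of 10 members in place in treated HT55 and 5 in treated SW948. The causes were not tested. At 10 to 40 counts of NOTUM and 2 to 18 of APCDD1 per SW948 library, depth limits both.

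With replicate number as a block, 5 members changed in HT55, with AXIN2 (-0.39, adjusted p = 0.034) and TCF7 (-0.49, adjusted p = 0.0115) added, and the block changed no other call of a member. Correlations of same-numbered libraries were -0.0249 to 0.116 in HT55 and -0.00348 to 0.104 in SW948. Replicate 3 correlated best with its own number in both lines, as did replicate 4 in SW948, and the other numbers did not. Whether same-numbered cultures share more than a number was not tested.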
